A study of Mus musculus with 10 samples.

Results

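The genes described here encode collagen IV chains, laminin chains, nidogens, perlecan and Sparc, the building material of the basement membrane. They were chosen by name: a probe set belonged if its only gene symbol was Sparc, Nid1, Nid2 or Hspg2, or began with Col4a, Lama, Lamb or Lamc followed by a digit. The RefSeq annotation lists 21 such mouse genes, of which 12, measured by 19 probe sets, were among the 2560 named genes analysed here. They were 4 collagen IV genes (Col4a1, Col4a2, Col4a5 and Col4a6), 6 laminin genes (Lama1, Lama3, Lama5, Lamb1, Lamb3 and Lamc1), Nid1 and Sparc. No probe set of Col4a3, Col4a4, Lama2, Lama4, Lamb2, Lamc3, Nid2 or Hspg2 was among those analysed. The authors kept only probe sets whose highest array was 4-fold or more above the lowest, so the 12 genes had to differ somewhere, and how many of them differed says nothing by itself about the family.

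RNA was measured on Affymetrix expression arrays in 5 populations sorted from mammary glands of virgin female FVB mice aged 6 to 8 weeks, with 2 arrays per population. Glands were taken apart with collagenase and hyaluronidase, dispase and trypsin, and cells carrying CD45, CD31 or Ter119, and per the methods CD140α, were set aside before sorting on CD24, CD49f (the integrin α6 chain) and Thy-1. The basal populations were Thy-1+CD24medCD49fhigh, which the submitters call stem cells, Thy-1-CD24medCD49fhigh, which they call progenitors, and CD24medCD49fmed, which they call myoepithelial (the study's text gives the myoepithelial gate as CD24lowCD49fmed, so which gate these values describe is not settled). The luminal populations were CD24highCD49fmed, called luminal progenitors, and CD24medCD49f-/low, called differentiated luminal cells. The labels name no treatment and no engineered allele. These are populations enriched by surface phenotype and not pure cell types, and nothing in the labels ties an array to an animal.

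Basement membranes are thin sheets of extracellular matrix on which epithelia rest. Laminins, each a trimer of an α, a β and a γ chain, form a network bound to cell surfaces through integrins and dystroglycan, collagen IV trimers form another, and nidogen and perlecan join the networks. In the mammary gland the basal, myoepithelial layer lies against the basement membrane and the luminal layer lies inside it, mostly out of contact with it.

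The deposited values are log2 intensities centred on 0 for each probe set, so a value gives how far an array lay above or below the average array for that gene and no absolute level. Probe sets of a gene were averaged. All 10 arrays were fitted together with limma, and the word called is used of genes whose p, adjusted by Benjamini and Hochberg's method, was under 0.05 over the 2932 genes and unnamed probe sets tested. The population labels were set against marker genes first. The 11 basal markers in the table were all called higher in the basal populations (median log2 difference 3.51), against 34.7% of all features. Of 9 luminal markers 4 were called lower there and 5 were not called. That share is near the 41.3% of all features called lower, so this count says nothing about the luminal labels. Over all features, 7 of the 10 arrays had their highest correlation with an array outside their own population. The shortfall was largest in a pair of arrays, chosen after seeing the data: CD24medCD49f-/low replicate 1 correlated at 0.364 with its partner array and at 0.761 with CD24highCD49fmed replicate 1, and Thy-1+CD24medCD49fhigh replicate 1 correlated at 0.449 with its partner and at 0.836 with CD24medCD49fmed replicate 2. This pair is called the poorly matched arrays, and results that rest on them are given with and without them. The correlation with the partner is by construction the same for both arrays of a population. The partners, both replicate 2, reached at most 0.596 (CD24medCD49f-/low) and 0.637 (Thy-1+CD24medCD49fhigh) with an array of another population. The name therefore does not say which array of a population is the more deviant. Whether samples were exchanged cannot be told from these values.

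Most of these genes gave more RNA in the basal than in the luminal populations. Of the 12 genes, 11 were called higher in the mean of the 3 basal populations than in the mean of the 2 luminal ones, against 34.7% of all features called higher (41.3% were called lower, 76.0% in all). The median log2 difference of the 12 was 2.67, while that of all features was −0.11. In 11 of the 12 genes every one of the 6 basal arrays lay above every one of the 4 luminal arrays, which held for 25.2% of all features. Lama5 was the exception in both counts. In bulk samples such as these, fewer cells of a type and less RNA per cell cannot be told apart.

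**Figure D1:**
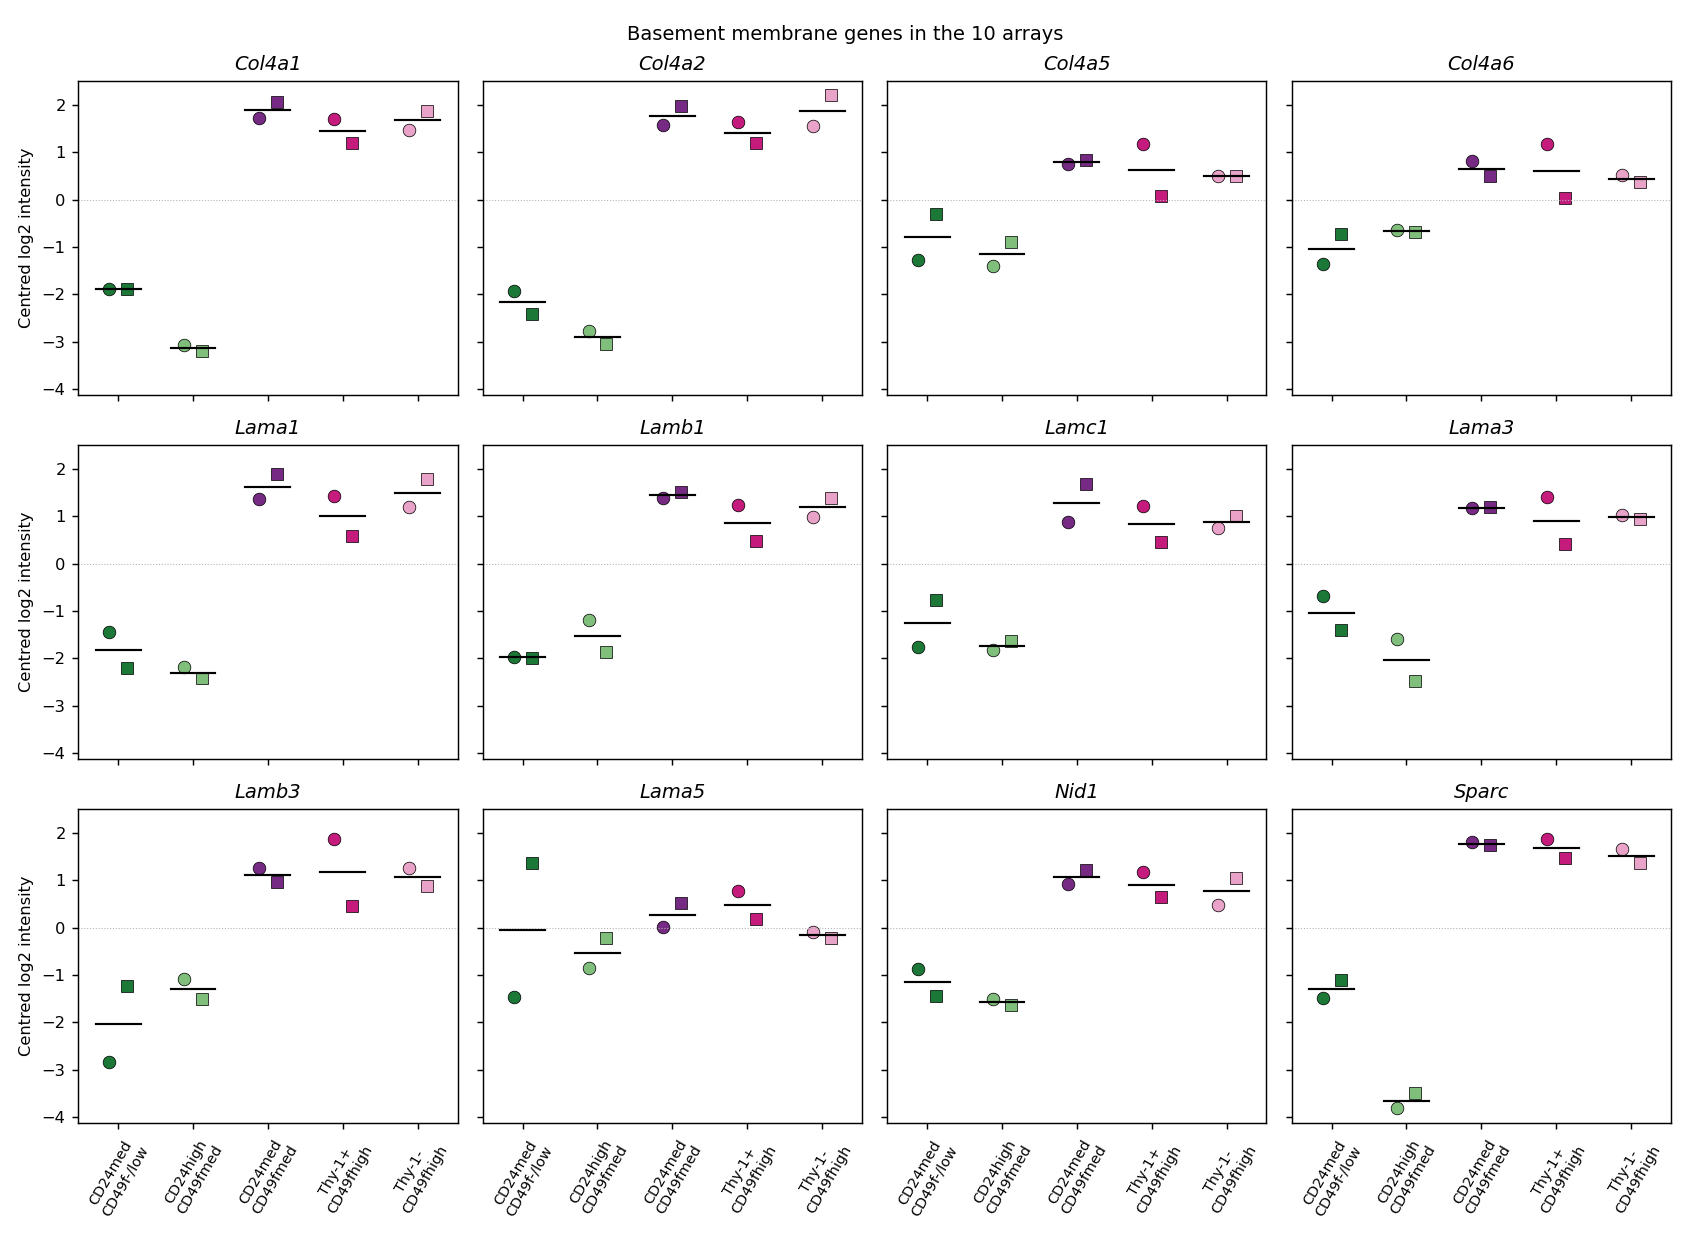
Centred log2 intensity (vertical axis) of each of the 12 genes in the 5 populations (horizontal axis), with 1 point per array, a circle for the lower and a square for the higher replicate number, and a bar for the mean of the 2 arrays. Green marks the luminal and purple and pink the basal populations; all basal points lie above all luminal points in 11 genes but not in Lama5.

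Collagen IV was led by its most widespread chains. Col4a1 and Col4a2 encode the α1 and α2 chains, which assemble with each other into the common collagen IV trimer. The genes stand head to head on chromosome 8, where their RefSeq gene spans overlap by 85 bases, chr8:11312805-11312889. Their windows run from 250 bases before to 50 after the start used for each (RefSeq, build GRCm38.p6), which is not always the end of the gene span. They are shown because the pair shares 1 promoter region and the arrays gave them nearly the same pattern. Capitals mark the 78 bases, chr8:11312777-11312854, that lie in both windows and read as reverse complements of each other.

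Col4a1, chr8:11312777-11313076, minus strand: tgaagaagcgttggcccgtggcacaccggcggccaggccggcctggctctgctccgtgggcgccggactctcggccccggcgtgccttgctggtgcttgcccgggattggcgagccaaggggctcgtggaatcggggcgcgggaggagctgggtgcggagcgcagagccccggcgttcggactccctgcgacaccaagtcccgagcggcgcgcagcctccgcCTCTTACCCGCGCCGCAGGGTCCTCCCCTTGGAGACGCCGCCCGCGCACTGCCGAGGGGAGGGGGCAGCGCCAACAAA
Col4a2, chr8:11312555-11312854, plus strand: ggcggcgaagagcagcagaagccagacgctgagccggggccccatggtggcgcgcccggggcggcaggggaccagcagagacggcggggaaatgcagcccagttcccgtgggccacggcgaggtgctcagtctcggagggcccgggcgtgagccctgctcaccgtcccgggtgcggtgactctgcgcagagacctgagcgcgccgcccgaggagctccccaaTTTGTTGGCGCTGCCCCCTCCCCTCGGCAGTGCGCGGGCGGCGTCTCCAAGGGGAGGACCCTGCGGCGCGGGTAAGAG

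Col4a1 lay at −3.06 and −3.20 in the CD24highCD49fmed arrays and at −1.88 in both CD24medCD49f-/low arrays. Across the 6 basal arrays its lowest value was 1.19, its median 1.71 and its highest 2.06. The gap between the nearest basal and luminal arrays was therefore 3.07 on the log2 scale, wider than the whole spread of the luminal arrays. Basal minus luminal, Col4a1 differed by 4.17 ± 0.32 (SE), 18.1-fold, with an adjusted p of 3.71e-09 in limma.

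Col4a2 followed it closely. It lay at −2.76 and −3.04 in CD24highCD49fmed, at −1.92 and −2.40 in CD24medCD49f-/low, and between 1.19 and 2.20 in the basal arrays with a median of 1.61. The difference was 4.22 ± 0.33, 18.6-fold, with an adjusted p of 3.71e-09. Among all 2932 features Col4a2 ranked 13 and Col4a1 ranked 16 by the size of the basal excess.

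Col4a5 and Col4a6, whose α5 and α6 chains join in another collagen IV trimer, differed less. This pair too is divergent, on the X chromosome, but its gene spans lie 1274 bases apart, so their windows share no base. They are shown for that contrast, with capitals on matches to a CCAAT box (CCAAT) or a GC box (GGGCGG) on either strand.

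Col4a6, chrX:141474027-141474326, minus strand: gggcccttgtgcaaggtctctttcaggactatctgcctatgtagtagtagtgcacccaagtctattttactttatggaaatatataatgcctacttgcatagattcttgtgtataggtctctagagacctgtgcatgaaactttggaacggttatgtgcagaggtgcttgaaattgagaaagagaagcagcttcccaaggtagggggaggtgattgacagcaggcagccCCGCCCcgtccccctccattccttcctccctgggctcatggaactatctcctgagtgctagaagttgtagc
Col4a5, chrX:141475169-141475468, plus strand: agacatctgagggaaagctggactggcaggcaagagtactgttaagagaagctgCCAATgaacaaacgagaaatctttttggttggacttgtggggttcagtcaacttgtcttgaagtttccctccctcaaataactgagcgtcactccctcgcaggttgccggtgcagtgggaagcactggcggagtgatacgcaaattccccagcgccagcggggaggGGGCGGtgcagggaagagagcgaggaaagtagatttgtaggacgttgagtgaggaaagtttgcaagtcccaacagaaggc

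Both windows hold 1 GC box, and the Col4a5 window also holds 1 CCAAT box. Their GC content was 48.3% for Col4a6 and 52.7% for Col4a5, near the median of 52.7% over all 32851 windows, whereas the windows of Col4a1 and Col4a2 reached 74.0% and 73.7%. A window was found for 9 of the 12 genes, and Lama1, Lama3 and Lamc1 had none. A GC box stood in windows of 7 of these 9 genes against 35.7% of all windows, and a CCAAT box in 5 of 9 against 37.4%. The only GC box of the Col4a1 window lies in the bases shared with Col4a2, so 1 site counts for both genes. A TATA box (TATAAA) and an AP-1 site (TGANTCA) were found in none of the 9, against 13.6% and 7.81% of all windows. These are matches of letters on either strand in windows of 300 bases and not measured binding sites, and no match is a statement on this window alone.

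In the luminal arrays Col4a5 lay at −1.40 and −0.88 in CD24highCD49fmed and at −1.27 and −0.30 in CD24medCD49f-/low. Its basal arrays ran from 0.07 to 1.17 with a median of 0.63. The sides did not overlap, but their nearest arrays were only 0.37 apart. The difference was 1.60 ± 0.35, 3.04-fold (adjusted p = 5.03e-04 in limma). Col4a6 gave −0.64 and −0.69 in CD24highCD49fmed, −1.37 and −0.72 in CD24medCD49f-/low, and 0.03 to 1.18 in the basal arrays with a median of 0.51, a difference of 1.42 ± 0.34 (adjusted p = 0.00113 in limma). The intervals of the major and the minor pair did not meet on this scale, although intensities of different genes were not compared as levels.

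Among the laminins, the genes of the α1β1γ1 trimer were all higher in basal cells. Lama1, which encodes the α1 chain, lay at −2.19 and −2.42 in CD24highCD49fmed and at −1.45 and −2.20 in CD24medCD49f-/low, against 0.59 to 1.88 with a median of 1.40 in the basal arrays. Its difference of 3.44 ± 0.34, 10.9-fold, was the largest of the 6 laminin genes (adjusted p = 6.70e-08 in limma). Lamb1, the β1 chain, gave −1.19 and −1.86 in CD24highCD49fmed, −1.96 and −1.98 in CD24medCD49f-/low, and 0.47 to 1.52 in the basal arrays with a median of 1.32. Lamc1, the γ1 chain found in most laminins, gave −1.83 and −1.64, then −1.77 and −0.76, against 0.45 to 1.68 with a median of 0.95. The differences were 2.92 ± 0.33 for Lamb1 (adjusted p = 3.86e-07) and 2.50 ± 0.35 for Lamc1 (adjusted p = 4.70e-06), which is 7.55-fold and 5.65-fold.

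Lama3 and Lamb3 encode the α3 and β3 chains of the laminin that anchors hemidesmosomes. Lama3 lay at −1.59 and −2.47 in CD24highCD49fmed, at −0.69 and −1.39 in CD24medCD49f-/low and between 0.42 and 1.40 in the basal arrays with a median of 1.10. Lamb3 gave −1.09 and −1.50, then −2.83 and −1.24, against 0.45 to 1.88 with a median of 1.11. The lowest luminal array thus differed between the pair, CD24highCD49fmed replicate 2 for Lama3 and CD24medCD49f-/low replicate 1 for Lamb3. The basal excess was 2.56 ± 0.34 for Lama3 (5.90-fold, adjusted p = 3.38e-06) and 2.78 ± 0.38 for Lamb3 (6.86-fold, adjusted p = 4.32e-06).

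Lama5, the α5 chain of the laminin most widely found in adult epithelial basement membranes, was the only member not called. Its basal arrays ran from −0.23 to 0.77 with a median of 0.10. The luminal arrays lay on both sides of them, at −0.84 and −0.22 in CD24highCD49fmed and at −1.46 and 1.37 in CD24medCD49f-/low. The highest and the lowest of all 10 values thus came from the 2 arrays of 1 population. The difference of 0.48 ± 0.43 had a 95% interval from −0.41 to 1.37 and an adjusted p of 0.300 in limma. It rested on that pair: it was −0.22 without CD24medCD49f-/low replicate 1 (adjusted p = 0.550) and 1.19 without replicate 2 (adjusted p = 0.00218). With both poorly matched arrays left out, it was −0.32 (adjusted p = 0.357). Lama5 had a single probe set, so no second measure on these arrays bears on it.

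Nid1 encodes nidogen-1, which links the laminin and collagen IV networks. It lay at −1.51 and −1.64 in CD24highCD49fmed, at −0.87 and −1.43 in CD24medCD49f-/low and between 0.48 and 1.22 in the basal arrays with a median of 0.98. The difference was 2.27 ± 0.33, 4.84-fold (adjusted p = 7.39e-06 in limma).

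Sparc encodes a secreted collagen-binding glycoprotein of the matrix that binds collagen IV. It lay at −3.81 and −3.49 in CD24highCD49fmed and at −1.48 and −1.11 in CD24medCD49f-/low. The 6 basal arrays held between 1.35 and 1.88 with a median of 1.70, so the basal values were close together and the luminal values fell into separate steps. The basal excess was 4.12 ± 0.32, 17.4-fold (adjusted p = 3.71e-09), rank 19 of 2932.

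Sparc was also the only member called between the luminal populations, at 2.36 ± 0.49 on the log2 scale lower in CD24highCD49fmed than in CD24medCD49f-/low. This was 5.14-fold, with a 95% interval of the signed difference from −3.39 to −1.34 and an adjusted p of 0.0458 in limma. Only 6 features, 0.205% of those tested, were called in this comparison, 2 higher and 4 lower (0.136%). The median of all features was 0.34 higher in CD24highCD49fmed. With every array's median set to 0, Sparc differed by −2.74 (adjusted p = 0.00709), and 15 features were called, of which 13.3% were higher against 33.3% before. With quantile normalisation Sparc differed by −1.64 and was not called (adjusted p = 0.825). Both its probe sets pointed the same way, by −2.59 and −2.13. The call was near the threshold and was lost in 8 of the 10 fits without 1 array, all but those without CD24medCD49f-/low replicate 1 or 2, with adjusted p-values from 0.0110 to 0.626, although the difference stayed between −2.55 and −2.18.

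Col4a1 was the next member in this comparison, at −1.24 ± 0.49, with an unadjusted p of 0.0200 and an adjusted p of 0.244. Lama3 differed by −0.99 and Col4a2 by −0.74, while Lamb3, Lamb1 and Col4a6 had positive differences of 0.74, 0.45 and 0.38. None of these was called. With array medians set to 0, Col4a1 differed by −1.62 and Col4a2 by −1.11, and with quantile normalisation by −0.60 and −0.20, none of them called. The interval of Lamb3 ran to 1.97, so a nearly 4-fold excess in CD24highCD49fmed lay within it. Without CD24medCD49f-/low replicate 1, Lama5 was called here as well, at −1.90 (adjusted p = 0.0339), and it was also called with both poorly matched arrays left out (adjusted p = 0.0424). Sparc was called in both of those fits.

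**Figure D2:**
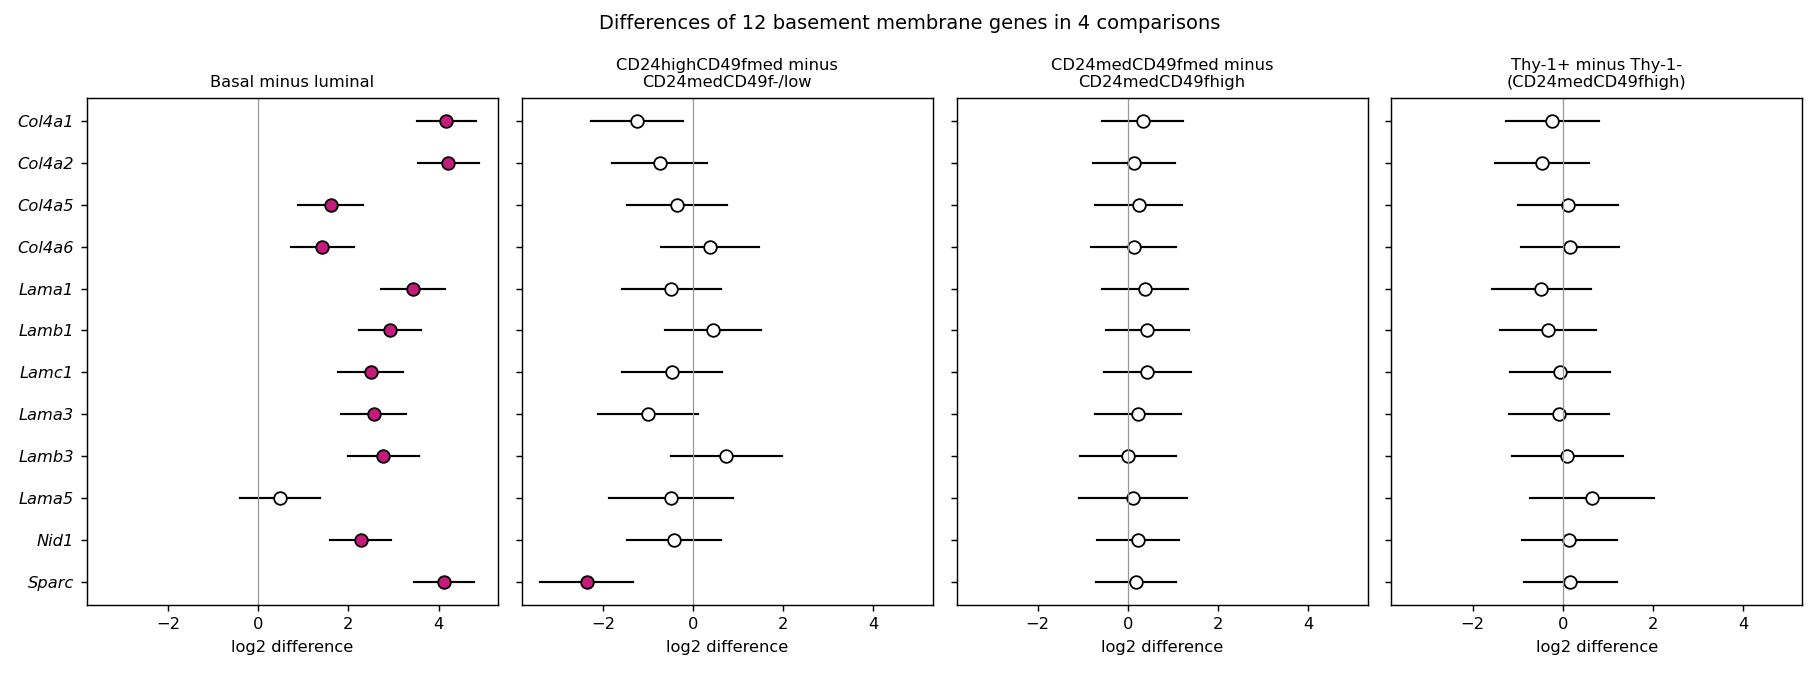
Log2 difference (horizontal axis) of each of the 12 genes in the 4 comparisons, 1 panel each, with a point for the estimate and a line for its 95% interval from limma. Filled points were called at an adjusted p under 0.05: 11 genes in basal minus luminal, only Sparc in the luminal comparison, and none within the basal populations.

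Within the basal populations no member was called. In CD24medCD49fmed minus the mean of both CD24medCD49fhigh populations, the 12 differences lay between 0.00 and 0.43, of which that of Lamb3 became −0.055 with array medians set to 0 and −0.16 with quantile normalisation. None of them reached an unadjusted p under 0.05 in limma, the adjusted p was 0.9995 or above, and 1 feature of all tested (0.0341%) was called, with 52 at an unadjusted p under 0.05. The 95% intervals ran from −1.08 to 1.39, so differences of up to about 1 log2 unit in either direction were within reach of the error. In Thy-1+ minus Thy-1- of the CD24medCD49fhigh cells, 6 members were positive and 6 negative, from −0.48 for Lama1 to 0.64 for Lama5, and with array medians set to 0 only Lama5 stayed positive. Again no member reached an unadjusted p under 0.05 in limma, 2 features (0.0682%) were called and 74 had an unadjusted p under 0.05, and the intervals ran from −1.57 to 2.02. A miss at this width does not show that the populations were alike.

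The populations were put in the order of their means for each gene, and each was compared with the next. Of the 48 neighbouring pairs, 10 were called. In none of the 12 genes did the highest population differ from the second, or the second from the next, beyond their spread. The step from rank 3 to rank 4 was called in 9 genes, in each of them the step from the lowest basal to the highest luminal population. In Col4a5 and Col4a6 this step was 1.29 (adjusted p = 0.0746) and 1.11 (adjusted p = 0.0731) and was not called. The last step was called only for Sparc. Over all features, CD24medCD49fmed differed by call from Thy-1+CD24medCD49fhigh in 0% and from Thy-1-CD24medCD49fhigh in 0.102%.

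Population by population, the CD24highCD49fmed arrays were called lower than CD24medCD49fmed in 11 members, than Thy-1+CD24medCD49fhigh in 11 and than Thy-1-CD24medCD49fhigh in 10, against 27.4%, 26.3% and 21.8% of all features. The CD24medCD49f-/low arrays were called lower than the same populations in 11, 10 and 10 members, against 22.0%, 18.9% and 17.4%. CD24medCD49fmed had the highest mean in 9 of the 12 genes, but these orders lie within the error given above.

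The probe sets of a gene mostly told the same story. In basal minus luminal all 18 probe sets of the 11 called genes were called when each was tested alone. Their sizes differed: Col4a1 gave 4.92 and 3.42, Sparc 4.78 and 3.47, and Nid1 2.90 and 1.65. The 3 probe sets of Lamb1 gave 2.96, 2.59 and 3.20, those of Lamc1 2.69 and 2.31, and those of Col4a6 1.53 and 1.31. In the luminal comparison the probe sets of Col4a6 (−0.08 and 0.84) and of Lamb1 (0.94, 0.52 and −0.13) differed in sign, so the gene means there join unlike values.

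**Figure D3:**
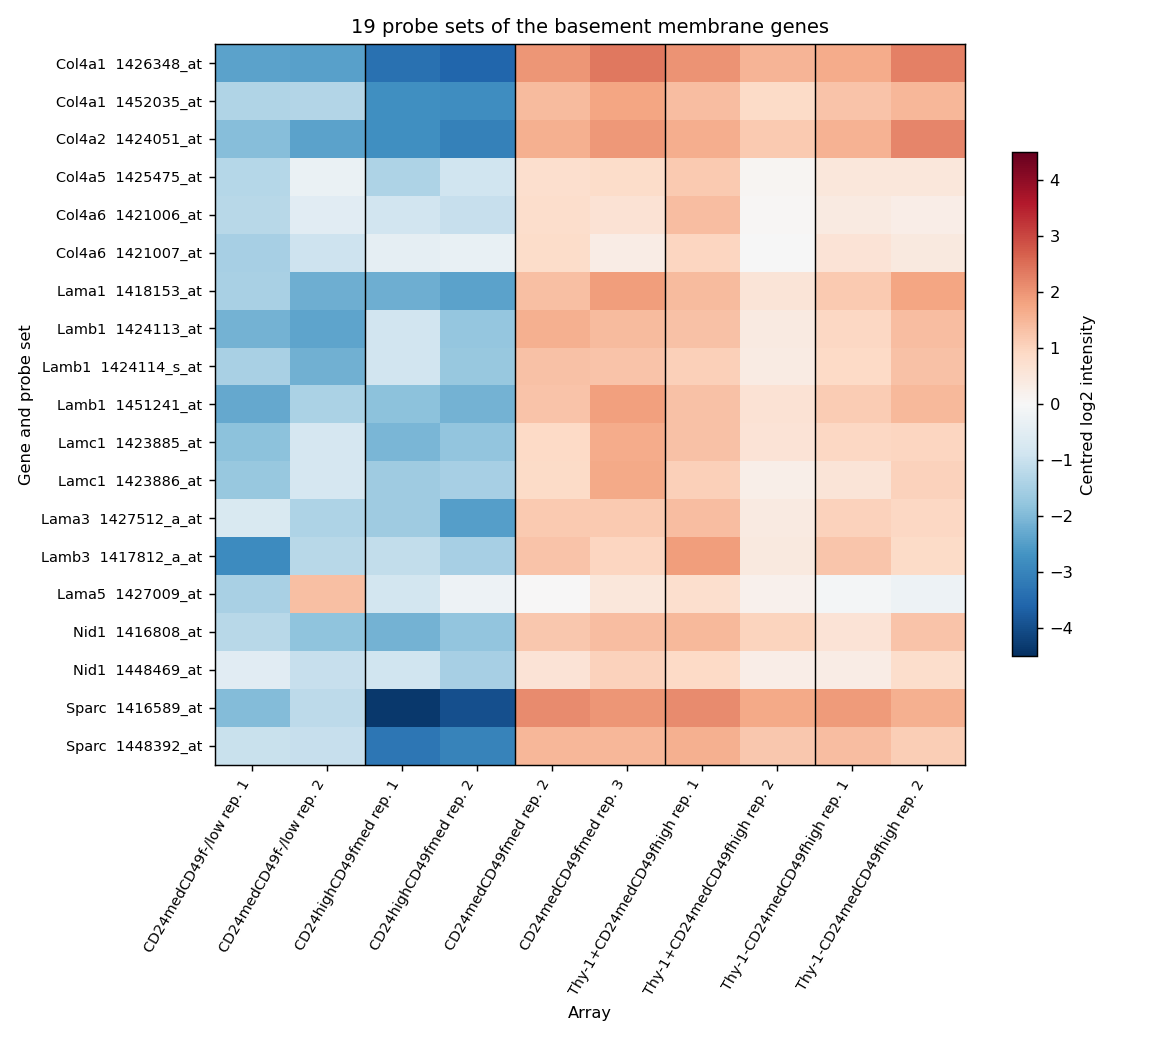
Centred log2 intensity (colour scale, blue below and red above 0) of the 19 probe sets, in rows by gene, in the 10 arrays, in columns, with vertical lines between populations. The 18 probe sets of the 11 called genes are higher on average in the basal than in the luminal arrays, Sparc is lowest in the CD24highCD49fmed arrays, and Lama5 is highest in CD24medCD49f-/low replicate 2.

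Across the arrays the members moved together. The arrays fall into those 2 clusters, so the correlations over all 10 are descriptions, with no test. Over 66 pairs of genes the median r was 0.922. The lowest of the 55 pairs without Lama5 was 0.814, and no pair with Lama5 was above 0.610. Col4a1 with Col4a2 and Col4a2 with Lama1 both reached 0.994, and Col4a5 with Col4a6 reached 0.937.

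Over the 6 basal arrays alone the pattern was less even. Col4a1 stayed close to Lama1 (r = 0.983), Lamb1 (0.959) and Col4a2 (0.880). Col4a5 and Col4a6 stayed close to each other (0.928) and to Lama3 and Lamb3, with 0.964 for Col4a5 with Lama3 and 0.971 for Col4a6 with Lamb3. Lama3 with Lamb3 gave 0.881. Sparc no longer followed the major collagen IV genes, with 0.242 for Col4a1 and −0.19 for Col4a2. These 6 points share arrays and normalisation and come from 3 populations. Thy-1+CD24medCD49fhigh replicate 2 was the lowest basal array for 9 of the 12 members, as it was for 46.5% of the 1017 features called higher in basal cells. The highest basal array was Thy-1+CD24medCD49fhigh replicate 1 for 6 members, CD24medCD49fmed replicate 3 for 5 and Thy-1-CD24medCD49fhigh replicate 2 for 1. The part of single arrays in these correlations was not tested.

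**Figure D4:**
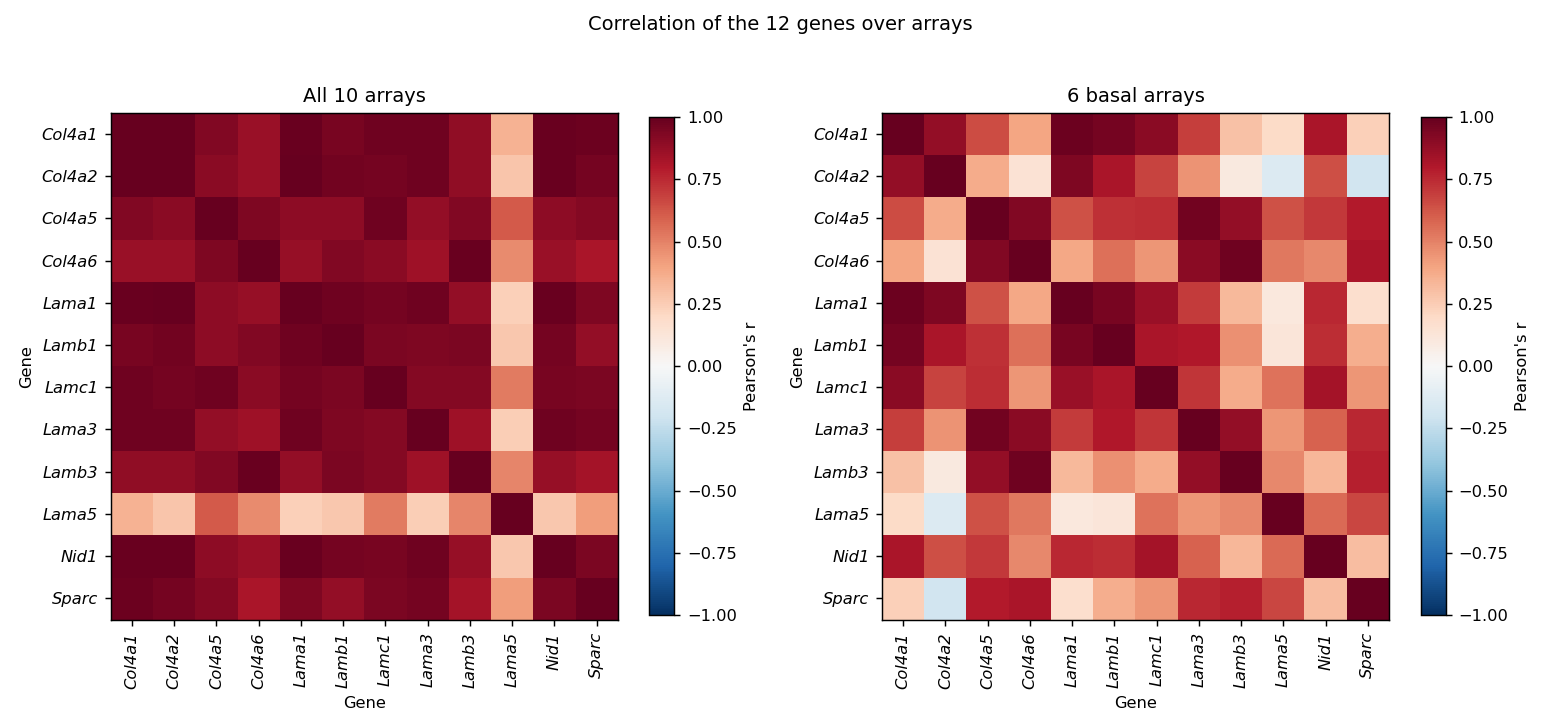
Pearson's r (colour scale) between each pair of the 12 genes, named on both axes, over all 10 arrays (left) and over the 6 basal arrays (right). Over all arrays only Lama5 stands apart, while over the basal arrays Sparc is near 0 with Col4a1 and Col4a2.

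The genes outside the family whose pattern over the 10 arrays was most like the mean of Col4a1 and Col4a2 were Sema6d (r = 0.996), Reln (0.995), Serpinf1 (0.995), Fscn1 (0.995) and Sostdc1 (0.994). Their basal excess ran from 2.23 for Fscn1 to 4.36 for Reln on the log2 scale. Most like the mean of Lama3 and Lamb3 were Rnase4 (0.994), Rasa3 (0.994), Ptpre (0.991), Pard6g (0.990) and Ext1 (0.989). The likeness again rests on the same 10 arrays and their 2 clusters. Over the 6 basal arrays Sema6d kept an r of 0.969 with the collagen IV mean, while Sostdc1 fell to 0.594.

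Other basement membrane components went with the family. Of 27 listed genes 17 were in the table. In basal cells 15 were called higher and 2 lower, against 34.7% and 41.3% of all features. Their median was 2.04, against −0.11 over all features. Matn2, a matrilin, was higher by 4.26, Fbln2, a fibulin, by 4.01, Vwa1, a matrix protein that binds perlecan, by 3.92 and Col17a1, the transmembrane collagen of hemidesmosomes, by 3.80, each with a SE between 0.32 and 0.34 and an adjusted p of 1.20e-08 or below in limma. The exceptions were Npnt (nephronectin, an integrin ligand), at −1.41 ± 0.39 (adjusted p = 0.00349), and Ntn1 (netrin-1), at −1.39 ± 0.34 (adjusted p = 0.00141).

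Receptors on the cell surface bind these networks. Of 23 genes listed here as basement membrane receptors 11 were in the table. All 11 were called higher in basal cells, against 34.7% of all features, with a median of 1.66. The list is a broad one, and which of its proteins bind laminin or collagen IV was not examined. Itga9 was higher by 2.46 ± 0.33, Itga6 by 2.25 ± 0.32, Dag1 (dystroglycan) by 2.17 ± 0.37 and Gpc3 (a glypican) by 2.10 ± 0.33. Itga6 encodes CD49f, on which the cells were sorted, so its value is no finding.

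Of 31 listed genes for collagen maturation 9 were in the table. These 9 were called higher in basal cells, against 34.7% of all features, with a median of 1.65. They include Loxl3, a lysyl oxidase that cross-links collagen, at 2.86 ± 0.32, Serpinh1, the collagen chaperone, at 2.51 ± 0.33, Ppib, a prolyl isomerase, at 2.14 ± 0.47, and Plod2, a lysyl hydroxylase, at 1.83 ± 0.32. No gene of these 3 lists was called in limma in the luminal comparison, where 0.205% of all features were. None was called in CD24medCD49fmed minus CD24medCD49fhigh or in Thy-1+ minus Thy-1- either, against 0.0341% and 0.0682% of all features. At such shares the absence of calls says nothing about these genes. Like the family itself, the lists hold only genes that varied enough to be kept.

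Markers of other cell types that make basement membrane were examined in the same arrays. None of 16 endothelial markers was in the table. Only probe sets that passed the authors' filters were kept, so this absence says nothing about endothelial cells in the samples. Of 13 fibroblast markers 7 were in the table, and in basal minus luminal 6 were called higher, among them Col5a2 (3.01) and Col3a1 (2.67), and Col6a3 was called lower (−2.23). The shares of these and the following lists stand against 34.7% of all features called higher and 41.3% called lower. The mean of the fibroblast markers in each array was −0.95 and −1.12 in CD24highCD49fmed, −0.48 and −0.68 in CD24medCD49f-/low, 0.75 and 0.45 in CD24medCD49fmed, 1.19 and 1.16 in Thy-1+CD24medCD49fhigh and −0.22 and −0.10 in Thy-1-CD24medCD49fhigh. The mean of the fibroblast markers was thus highest in the Thy-1+ cells. Of the 7 only Col3a1 was called higher there than in the Thy-1- cells, by 3.29 ± 0.50 (adjusted p = 0.00389 in limma), against 0.0682% of all features. The other 6 were not called, with differences from 0.19 for Col5a2 to 2.28 for Dpt. Col4a1 and Col4a2 differed in Thy-1+ minus Thy-1- by −0.23 (95% interval −1.26 to 0.80) and −0.46 (−1.51 to 0.59) and were not called. The part of fibroblasts in these values was not tested.

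Of 12 pericyte markers 7 were in the table and 4 were called higher in basal cells, with list means from −0.75 in CD24highCD49fmed replicate 2 to 0.87 in Thy-1+CD24medCD49fhigh replicate 1. Of 12 Schwann cell markers 8 were in the table, 7 called higher and Erbb3 called lower (−1.44), with list means from −0.97 to 0.88. Of 10 adipocyte markers 3 were in the table and 2 were called higher, and of 10 leukocyte markers only Lcp1 was, called lower at −1.76. Of 13 epidermal keratinocyte markers 8 were in the table and 4 were called higher, with a list mean of 2.43 in Thy-1+CD24medCD49fhigh replicate 1, 1.81 in CD24medCD49fmed replicate 2 and −0.68 to −0.10 in the other basal arrays. Luminal markers had a list mean of −0.16 in CD24medCD49f-/low replicate 1 and 1.52 in replicate 2, the same pair of arrays that parted in Lama5. Their mean was 0.52 and 0.92 in CD24highCD49fmed. Among the basal arrays it was 0.65 in Thy-1+CD24medCD49fhigh replicate 2 and 0.18 in CD24medCD49fmed replicate 3. It was −0.15 in Thy-1-CD24medCD49fhigh replicate 2 and −1.63 to −0.92 in the other basal arrays. The luminal list mean thus did not separate the basal from the luminal arrays. The part of these cell types in the differences of the family was not tested. Leaving out both poorly matched arrays does not test it either. CD24medCD49fmed replicate 2, with its keratinocyte mean of 1.81, and Thy-1+CD24medCD49fhigh replicate 2, with a fibroblast mean of 1.16, stay in that fit.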

How the data were processed

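RNA of 10 sorted samples had been hybridised to Affymetrix arrays. The deposited values are log2 intensities that the authors normalised across arrays, filtered and centred per probe set; the methods name RMA, the labels RMA and GCRMA, and versions are not given in the sources used here. No probe set ranged over less than 2.00 and the absolute mean reached at most 3e-07. Array brightness and depth cannot be read from centred values, and precision is limited by how many arrays there were.

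Of 3663 probe sets, 3291 had 1 symbol in the platform annotation, 75 several and 297 none listed. Probe sets of a gene were averaged, and the 372 without exactly 1 symbol were tested alone, giving 2932 features. All 10 arrays entered 1 limma model (3.58.1, R 4.3.3) with a mean per population, 5 residual and 16.5 prior degrees of freedom, two-sided, checked on simulated data. The study's rank product test was not run, because it resamples over genes. Nothing in the labels says that replicates came from separate animals, so the spread that p-values measure is that between these samples, which may be technical.

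The members, lists and tests were chosen with earlier results of these data known. Named were every member, from each other list up to 4 called genes of the largest difference and any called against most of its list, and the 5 genes most like each of 2 reference means. The alternatives comprised robust moderation, quantile normalisation, array medians set to 0, array weights, probe sets tested alone, only the arrays compared, a replicate block, a minimum difference of 1, each array left out and, added after seeing the data, both poorly matched arrays left out. Samples carry replicate numbers, and whether equal numbers mark a pairing cannot be told. Promoter windows and gene positions are from RefSeq, GRCm38.p6. The start that a window uses is not always the end of the gene span. The Lamb3 windows, for example, begin at 193301744 and 193301993 and its gene span at 193294353. The platform annotation was matched by probe set identifier. No per-sample column was left unused (0).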

Additional observations from a re-analysis of the deposited data

How the results depend on the processing

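The 11 genes called higher in basal cells were 11 under every alternative run for that comparison except without CD24medCD49f-/low replicate 2, where 12 were called; the range without 1 array was 11 to 12. No member was called within the basal populations under any alternative. The number of neighbouring pairs called ran from 7 to 14 without 1 array. Between the luminal populations the count of called members was 1, and it was 0 with quantile normalisation, with array weights, with probe sets tested alone and with only the arrays compared, 2 with both poorly matched arrays left out, and 0 to 2 without 1 array. Sparc had adjusted p-values there of 0.825, 0.197, 0.0564 and 0.331 in the first 4 of these. Called features over the whole table went from 6 to 15 with array medians set to 0, to 0 with quantile normalisation, array weights or only the arrays compared, to 33 with the replicate block (69.7% of them higher) and to 247 with both poorly matched arrays left out, and ran from 0 to 295 without 1 array. For Thy-1+ minus Thy-1- they went from 2 to 13 with only the arrays compared and to 1 with either rescaling, and for CD24medCD49fmed minus CD24medCD49fhigh from 1 to 0 with quantile normalisation, to 2 with array weights and to 3 with both poorly matched arrays left out. The cause was not tested.

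Small differences changed sign. With both poorly matched arrays left out, Lama5 gave −0.32 in basal minus luminal, Lamb3 −0.054 in the luminal comparison, and in Thy-1+ minus Thy-1- Col4a5 gave −0.43, Col4a6 −0.42, Lamb3 −0.61, Nid1 −0.12 and Sparc −0.037. With array medians set to 0, Lamb3 gave −0.055 in CD24medCD49fmed minus CD24medCD49fhigh, and in Thy-1+ minus Thy-1- Col4a5 gave −0.060, Col4a6 −0.011, Lamb3 −0.068, Nid1 −0.029 and Sparc −0.0036. With quantile normalisation the values were −0.16 for Lamb3 in the former comparison, and −0.24 for Col4a5 and −0.23 for Col4a6 in the latter. Without 1 array, the ranges of the differences that changed sign were −0.22 to 1.19 for Lama5 in basal minus luminal. In the luminal comparison they were −0.84 to 0.13 for Col4a5, −1.90 to 0.92 for Lama5, −0.054 to 1.54 for Lamb3 and −0.98 to 0.033 for Lamc1. In CD24medCD49fmed minus CD24medCD49fhigh they were −0.061 to 0.32 for Col4a2, −0.039 to 0.51 for Col4a5, −0.16 to 0.42 for Col4a6, −0.016 to 0.47 for Lama3, −0.13 to 0.36 for Lama5 and −0.35 to 0.36 for Lamb3. In Thy-1+ minus Thy-1- they were −0.49 to 0.026 for Col4a1, −0.43 to 0.66 for Col4a5, −0.42 to 0.74 for Col4a6, −0.57 to 0.41 for Lama3, −0.72 to 0.054 for Lamb1, −0.61 to 0.82 for Lamb3, −0.44 to 0.32 for Lamc1, −0.14 to 0.43 for Nid1 and −0.037 to 0.37 for Sparc.

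Whether equal replicate numbers mark a pairing cannot be told. The 16 pairs of arrays with the same number correlated between −0.53 and 0.51 in their deviations from the population means, and 4 were over 0.1. With 2 arrays per population the deviations mirror each other, so most of these values occur in 2 pairs. The 4 were 0.51 in both pairs of the luminal populations and 0.31 in both pairs of Thy-1+ with Thy-1- cells. With the replicate block 11 members were called in basal minus luminal and 1 in the luminal comparison, as without it, and in CD24medCD49fmed minus CD24medCD49fhigh Lama5 became −0.47 and Lamc1 −0.059. Number 3 occurs only in CD24medCD49fmed, so the block fits CD24medCD49fmed replicate 3 exactly. In every comparison that uses it, that population then rests on replicate 2 alone. These changes therefore cannot be told from those of losing an array. In Thy-1+ minus Thy-1- the features called went from 2 to 9 with the block.

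With 2 arrays per population, a difference of −1.24 in Col4a1 between the luminal populations was not called and one of −2.36 in Sparc lay near the threshold. A population left with 1 array was assumed to vary like the others.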
